A study of Mus musculus with 96 samples.

Results

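The enzymes and helpers that finish procollagen and prepare it for crosslinking were followed through 10 genes: P4ha1, P4ha2, P4ha3, P4hb, Plod1, Plod2, Plod3, Serpinh1, Pcolce and Bmp1. They were taken by name, and all 10 were found among the 21711 gene rows of the expression table. Single mouse cells on one 96-well plate had been profiled by single-cell tagged reverse transcription (STRT), which reads the 5′ end of each transcript and keeps its strand. The plate held 44 wells labelled as mouse embryonic fibroblasts (MEFs), connective tissue cells of the embryo grown in DMEM with serum, 48 wells labelled as embryonic stem (ES) cells of the pluripotent R1 line, and 4 negative control wells. The labels give no treatment or genotype for either cell type. For the MEFs too the cell line field reads R1, which conflicts with their cell type, and wells were grouped by cell type. No separate cultures were named within a type, so each type is 1 culture, its cells are no replicates of it, and the types were not tested against each other. The MEFs lay on one side of the plate and the ES cells on the other, so plate side and cell type cannot be told apart, while each of the 8 plate rows held both.

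Wells with at least 10000 gene reads were used, which kept 44 of 44 MEF wells and 45 of 48 ES wells. The MEF wells held 63938 to 1883709 gene reads (median 851801), the ES wells 13576 to 703423 (median 161206) and the negative control wells 236 to 4662 (median 3814.5). All 8 fibroblast markers, such as Thy1 and Fn1, were higher in MEFs by 2-fold or more, and all 8 ES cell markers, such as Pou5f1 and Dppa5a, lower by 2-fold or more. The ES cell markers summed to 29.4 counts-per-million of gene reads (CPM) over the MEF wells and 7935 CPM over the ES wells. Of markers of other matrix-making cells, the cartilage genes Col2a1 and Sox9 were read in MEFs, at 68.4 and 58.5 CPM, whereas Sp7, Ibsp, Acan and Matn1 were at 0. The 8 bone and cartilage markers summed to 128 CPM in MEFs and 5.16 CPM in ES cells. The 6 endothelial markers summed to 28.6 CPM in MEFs and 39.7 CPM in ES cells. Among them Flt1 had 15.5 CPM in MEFs (12 wells) and 1.03 CPM in ES cells, and Kdr had 5.69 CPM in MEFs and no ES read. Egfl7 went the other way, with 5.23 CPM in MEFs (6 wells) and 37.4 CPM in ES cells (8 wells), most of the ES sum. Tek had 2.16 CPM in MEFs and 1.26 CPM in ES cells, and Pecam1 and Cdh5 were at 0 in both. The part of such cells in the results was not tested. ES replicates 4 and 7 correlated better with the mean MEF profile than with the mean ES profile, and ES replicate 30 nearly as well, so ES values that rest on them are given without them too.

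Collagen chains enter the endoplasmic reticulum as they are made and are modified there before they fold into a triple helix. Prolyl 4-hydroxylase, built of a catalytic alpha subunit (P4ha1, P4ha2 or P4ha3) and a beta subunit that is also a protein disulfide isomerase (P4hb), makes the hydroxyproline that keeps the helix stable at body temperature. Lysyl hydroxylases (Plod1, Plod2 and Plod3) make the hydroxylysine that carries sugars and enters crosslinks, and the chaperone encoded by Serpinh1 binds the folded helix and escorts it to the Golgi. Outside the cell, the proteinase Bmp1 removes the C-terminal propeptide and the enhancer protein Pcolce speeds this cut, after which fibrils can form and lysyl oxidases crosslink them. Both kinds of hydroxylase need iron, oxoglutarate, oxygen and ascorbate, and in mammalian cells P4ha1, P4ha2 and Plod2 are known targets of the hypoxia-inducible factors.

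The genes lie at several places in the genome, given here in GRCm38 from GENCODE annotation, since the build of the deposited table is not given in the sources used here. P4ha1 spans chr10:59323296-59373304 and P4ha2 chr11:54100095-54131665, both on the plus strand. P4ha3 spans chr7:100285520-100319699 on the plus strand, on the same chromosome as Serpinh1 at chr7:99345376-99353239 on the minus strand. P4hb is at chr11:120560298-120573253, Plod1 at chr4:147909753-147936767 and Bmp1 at chr14:70474558-70520234, all on the minus strand. Plod2 is at chr9:92542223-92608428 and Plod3 at chr5:136987019-136996648 on the plus strand, and Pcolce at chr5:137605103-137613784 on the minus strand. The reads of all 10 genes were uniquely mapped. Pcolce overlaps Fbxo24 on the same strand, and Fbxo24 had no read in either cell type. Plod3 overlaps Mir702 on its own strand and Znhit1 on the other.

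Because STRT reads start at the 5′ end, the sequence just before each start is the stretch next to what was counted. RefSeq promoters (GRCm38.p6) were matched for 8 of the 10 genes, all but Plod2 and Bmp1. The 250 bases before the start are printed 5′ to 3′ on the gene's strand for the alternative alpha subunits, which can take one another's place in the enzyme, and for Serpinh1, the most abundant of the 10 genes in MEFs. The windows are chr10:59323046-59323295 (plus strand) for P4ha1, chr11:54100674-54100923 (plus) for P4ha2, chr7:100285270-100285519 (plus) for P4ha3 and chr7:99353240-99353489 (minus) for Serpinh1. The P4ha2 window lies inside the gene's GENCODE span, which starts further upstream, and none of the 4 windows overlaps an annotated exon. Capitals mark the core of the hypoxia response element, ACGTG or GCGTG, on either strand.
P4ha1: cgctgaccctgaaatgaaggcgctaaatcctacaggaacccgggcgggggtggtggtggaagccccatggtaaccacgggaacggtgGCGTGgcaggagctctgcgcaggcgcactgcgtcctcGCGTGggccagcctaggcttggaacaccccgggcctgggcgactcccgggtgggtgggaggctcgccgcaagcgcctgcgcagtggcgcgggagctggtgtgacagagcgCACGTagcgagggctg
P4ha2: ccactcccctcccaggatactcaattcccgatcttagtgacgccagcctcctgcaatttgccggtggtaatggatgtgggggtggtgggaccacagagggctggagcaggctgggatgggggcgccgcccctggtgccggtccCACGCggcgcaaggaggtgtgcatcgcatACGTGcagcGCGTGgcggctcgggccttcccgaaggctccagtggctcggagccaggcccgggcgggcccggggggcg
P4ha3: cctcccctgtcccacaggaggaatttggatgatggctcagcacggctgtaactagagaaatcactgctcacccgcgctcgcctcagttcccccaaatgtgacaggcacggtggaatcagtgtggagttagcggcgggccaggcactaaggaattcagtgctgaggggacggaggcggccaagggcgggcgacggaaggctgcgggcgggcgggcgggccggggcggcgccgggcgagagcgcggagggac
Serpinh1: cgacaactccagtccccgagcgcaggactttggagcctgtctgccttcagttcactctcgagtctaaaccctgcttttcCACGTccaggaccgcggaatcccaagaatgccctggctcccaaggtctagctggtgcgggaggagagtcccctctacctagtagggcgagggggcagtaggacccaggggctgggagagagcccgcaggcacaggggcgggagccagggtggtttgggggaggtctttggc
P4ha1 had 3 matches, at 163, 126 and 16 bases before the start, and P4ha2 also had 3, at 107, 78 and 69 bases. Serpinh1 had 1, at 171 bases, and P4ha3 had none in this window. The core was found in 7 of the 8 windows matched, and in 38.6% of 32851 RefSeq promoters of the same length. The GC box, GGGCGG, was also in 7 of 8, against 32.7% of all promoters, and the CCAAT box in 2 of 8, against 33.8%. The ER stress response element, searched in its full form on both strands, was in 0 of 8 and in 0.113% of all promoters. Its first letters are a CCAAT box, so those motifs can overlap. The printed windows held 69.6% G or C for P4ha1, 70% for P4ha2, 67.2% for P4ha3 and 63.6% for Serpinh1, above the 52.4% median of all promoters. A match describes the letters only and does not show binding.

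All 10 genes were higher in MEFs than in ES cells. On the pooled CPM scale, in which reads are summed over the wells of a type and divided by its gene reads, each was at least 2-fold higher in MEFs, with ratios between 6.95-fold for P4hb and 40.03-fold for P4ha3. The background for this count is broad: 58.5% of the 12818 genes with at least 20 reads over both types also passed 2-fold in that direction, and 15.4% in the other. Ribosomal protein genes took 14.2% of gene reads in MEFs and 44.6% in ES cells. The median gene was higher in MEFs by 1.48 on the log2 scale. Set against that median, all 10 genes still passed 2-fold, against 33.3% of all genes. The median log2 ratio of the 10 genes was 3.31, which is 1.83 above the all-gene median. With 10 CPM added, the same difference was 2.17 over all wells and ran from 1.57 to 2.71 over the 8 plate rows (SD 0.392). All members but Plod1 were higher in MEFs in 8 of 8 plate rows, as were 17.8% of all genes. Plod1 was higher in 7 of 8. In a ranking of all measured genes by their ratio, 9 of the 10 genes lay at or above the 75th percentile (a log2 ratio of 3.04), and P4hb at the 71.6th.

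**Figure D1:**
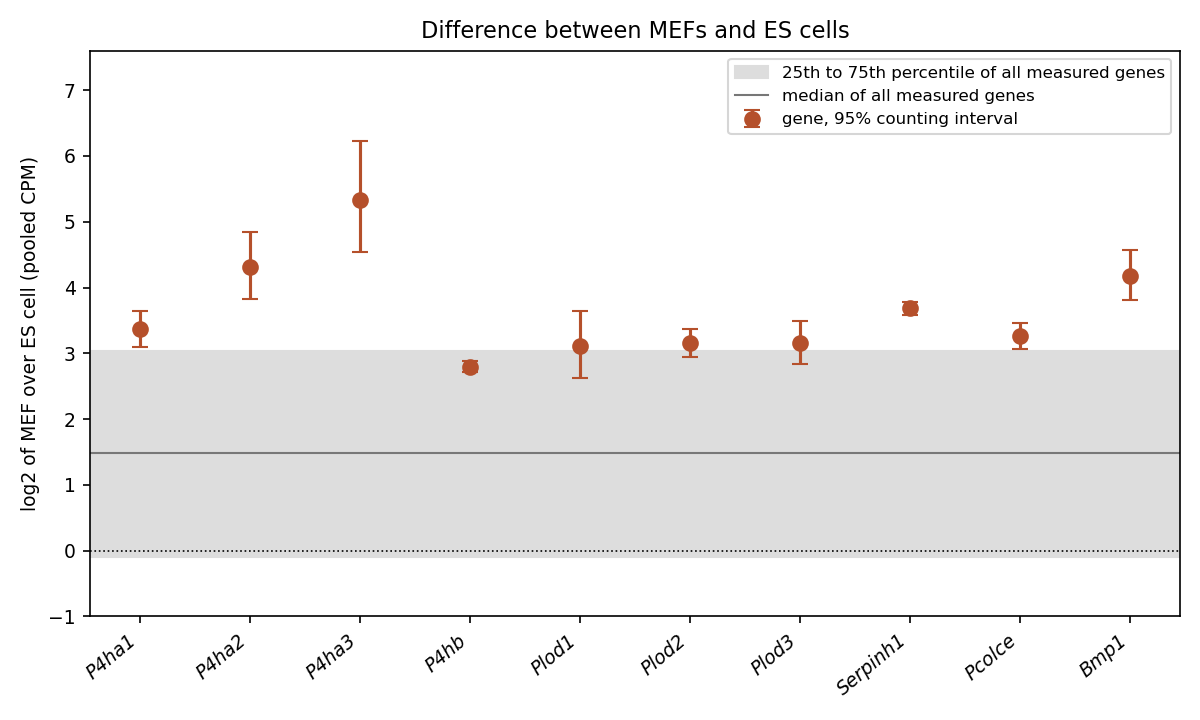
The log2 ratio of pooled CPM (y axis, MEF over ES cell) for each of the 10 genes (x axis), with 95% counting intervals as bars, against the median (line, 1.48) and the 25th to 75th percentile (grey band, ending at 3.04) of all measured genes. P4ha3 is highest at 5.32 and P4hb lowest at 2.80, inside the grey band.

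Added together, the 10 genes took 3016 CPM in MEFs and 302 CPM in ES cells. Per well the sum ran from 886 to 5427 CPM in MEFs (median 2919) and from 0 to 3124 CPM in ES cells (median 187). The ranges overlapped: 18 of 44 MEF wells lay above the highest ES well, and 6 of 45 ES wells lay above the lowest MEF well. The highest ES well was replicate 4. ES replicates 4, 7 and 30 held 3124, 1921 and 2035 CPM, and without them the pooled ES level was 276 CPM. The 6 ES wells under 50000 gene reads had a median of 1508 CPM (range 0 to 2062) and the other 39 a median of 168 CPM (range 0 to 3124).

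The negative control wells bear on the low ES values. They held 9, 18, 7 and 0 reads of the 10 genes, which is 2714 CPM of their few gene reads, close to the MEF level. These reads came from Serpinh1 (5, 11, 7 and 0 reads), P4hb (4, 2, 0 and 0) and Plod2 (0, 5, 0 and 0), and the other 7 genes had none. The mean of 8.5 reads per negative control well compares with a median of 2480.5 reads of these genes per MEF well and 34 per ES well. At the mean of the negative control wells, 258.75 of the 840 Serpinh1 reads over the ES wells would be background, as would 56.25 of 187 Plod2 reads and 67.5 of 1063 P4hb reads. That mean did not hold in every ES well. Plod2 was read in only 13 of 45 ES wells, and the deepest ES well, replicate 33, held 1 Serpinh1 read. Values with negative control reads subtracted, here and below, may therefore take away too much. The source of the negative control reads was not tested.

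MEF wells held more of the genes at once. A MEF well had reads of a median of 9 of the 10 genes (range 1 to 10), and an ES well of 3 (range 0 to 9). All 10 were read in 9 of 44 MEF wells, and no ES well had more than 9. MEF wells were deeper, so every well was also thinned to 20000 gene reads, which left out 3 shallower ES wells. The median was then 7 genes in MEFs and 2 in ES cells. A gene without a read in a well at this depth may still have been expressed there.

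**Figure D2:**
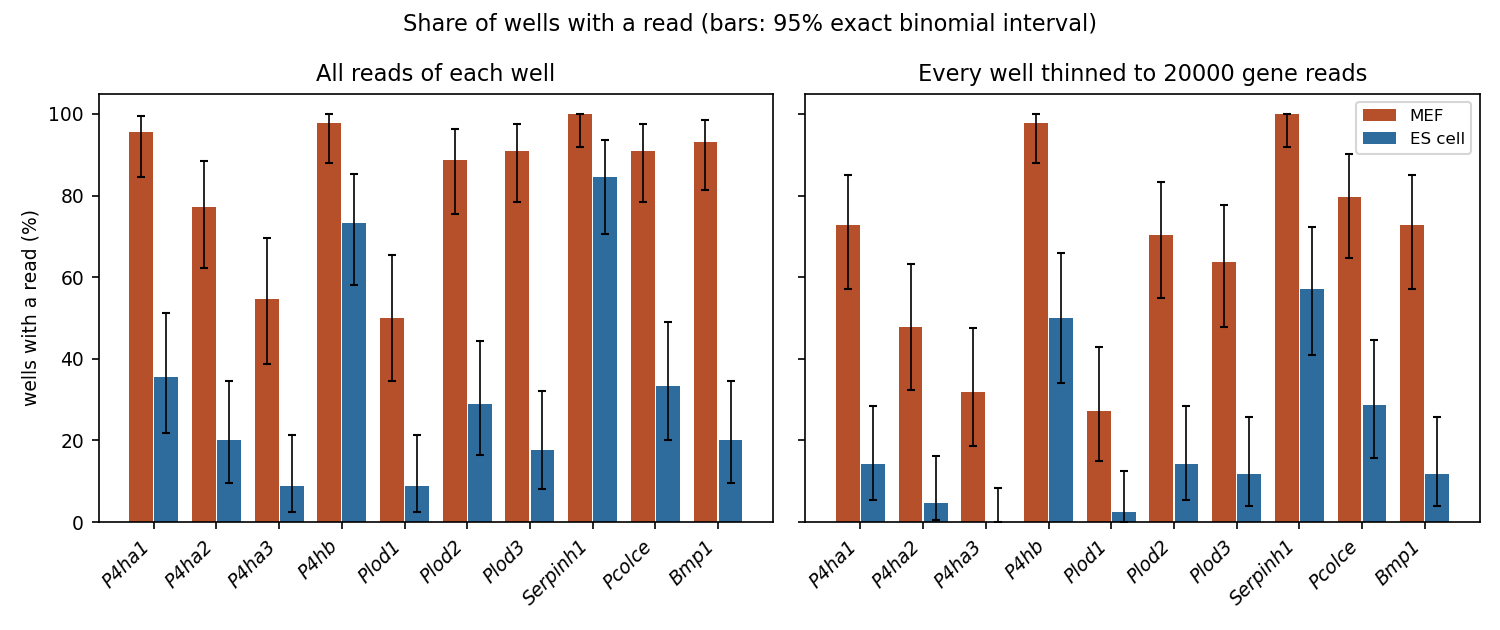
Share of wells with at least 1 read (y axis, percent) of each gene in MEFs and ES cells, with all reads (left; 44 MEF and 45 ES wells) and after thinning to 20000 gene reads (right; 44 MEF and 42 ES wells); bars are exact 95% binomial intervals. Every gene is read in a larger share of MEF wells, and P4ha3 is read in 4 of 45 ES wells with all reads and in 0 of 42 at the thinned depth, where the exact interval for a read at that depth ends at 8.41%.

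The alpha subunits of prolyl 4-hydroxylase had ratios spread from 10.3-fold to 40.03-fold. P4ha1, the most widely used alpha subunit, ranged from 0 to 797 CPM over MEF wells (median 83.4) and from 0 to 221 CPM over ES wells (median 0). Reads were present in 42 of 44 MEF wells and 16 of 45 ES wells, and only 8 MEF wells exceeded the highest ES well. That ES well, replicate 8, held 3 P4ha1 reads among 13576 gene reads. Pooled, P4ha1 stood at 136 CPM (95% exact Poisson interval 132 to 140) in MEFs and 13.2 CPM (10.9 to 15.8) in ES cells, a ratio of 10.3-fold (8.58 to 12.5). These intervals, here and below, address counting error only and treat each read as an independent count. Because PCR copies were not collapsed, the intervals may be too narrow even for that.

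P4ha2, a second alpha subunit, ranged from 0 to 565 CPM over MEF wells (median 43.6) and from 0 to 72.7 CPM over ES wells (median 0). It was read in 34 of 44 MEF wells and 9 of 45 ES wells, and 15 MEF wells lay above the highest ES well. The pooled levels were 77.4 CPM in MEFs and 3.90 CPM in ES cells, a ratio of 19.9-fold (14.2 to 28.7).

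P4ha3, the remaining alpha subunit, ranged from 0 to 325 CPM over MEF wells (median 5.68) and from 0 to 27.6 CPM over ES wells (median 0). It was patchy in MEFs, with reads in 24 of 44 wells, and rare in ES cells, with reads in 4 of 45. Pooled levels were 59.7 CPM in MEFs and 1.49 CPM in ES cells, a ratio of 40.03-fold (23.4 to 75.3) that rests on 13 ES reads. ES replicate 22 held 61.5% of those, and without it the ratio was 101-fold. After thinning to 20000 gene reads no ES read of P4ha3 was left. With a floor of 3 reads in its place, the log2 ratio was then 3.52, against 5.32 pooled. With 10 CPM added, which damps ratios of rare genes, the 3 alpha subunits had nearly the same log2 ratio: 2.66 for P4ha1, 2.65 for P4ha2 and 2.60 for P4ha3, against 0.50 for the median gene. Their SDs over plate rows were 0.705, 0.943 and 1.16. The order of the 3 ratios therefore depends on how low counts are handled.

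As shares of all alpha subunit reads, P4ha1 made up 49.8% in MEFs and 71% in ES cells. P4ha2 made up 28.3% in MEFs and 21% in ES cells, and P4ha3 21.8% in MEFs and 8.02% in ES cells. The ES shares rest on 162 reads in 21 wells. Over plate rows the P4ha1 share ran from 27.2% to 83.4% in MEFs, with an SD of 18.5 percentage points. In ES cells it ran from 38.9% to 100%, with an SD of 24.6. The row ranges overlapped, and a difference in make-up was not tested. Divided by the deposited transcript length, which is longest for P4ha1 and which 5′-end reads need not follow, the MEF shares were 36.6% P4ha1, 35.9% P4ha2 and 27.5% P4ha3. Most MEFs mixed subunits: 21 wells had reads of all 3, 15 of a pair and 7 of 1. Among ES wells 2 had reads of all 3, 4 of a pair and 15 of only 1. These counts use all reads and MEF wells were deeper, so they do not compare mixing between the types. P4ha1 was read in each of the 24 MEF wells with P4ha3 reads, and P4ha2 in 21 of them. Only 1 MEF well had P4ha2 or P4ha3 without P4ha1.

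**Figure D3:**
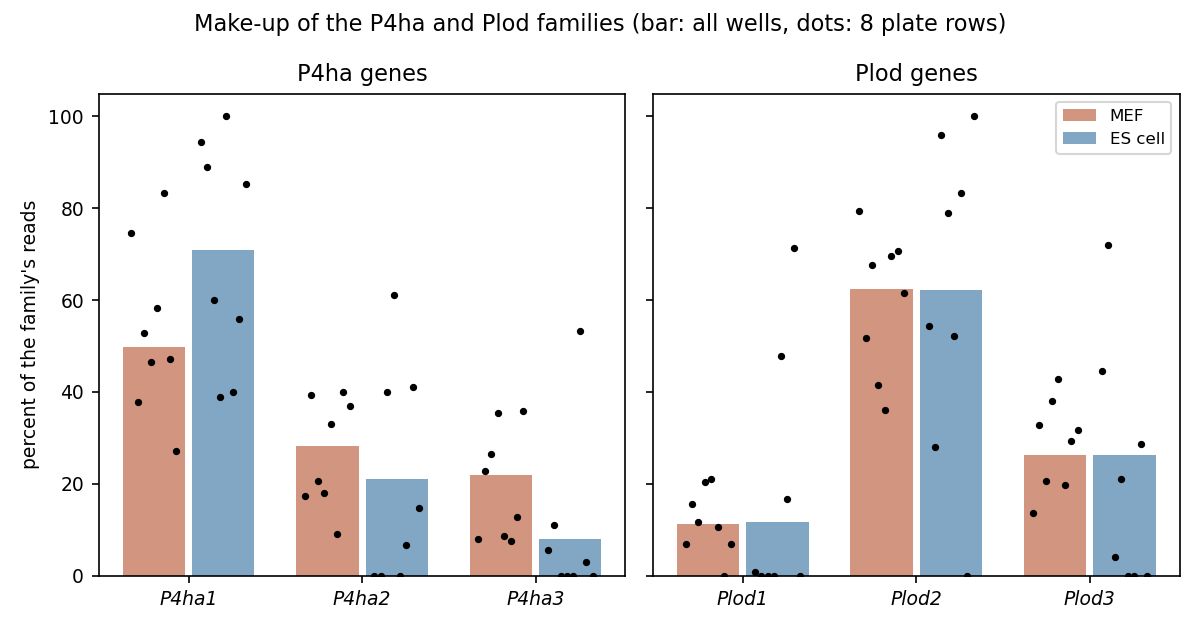
Percent of a family's reads (y axis) for each alpha subunit gene (left) and each lysyl hydroxylase gene (right), MEFs beside ES cells; bars pool all wells and dots are the 8 plate rows. P4ha1 is 49.8% in MEFs and 71% in ES cells, Plod2 is 62.3% in MEFs and 62.1% in ES cells, while dots of both types spread widely.

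P4hb, the beta subunit, which cells also use for disulfide exchange in other proteins, had the smallest ratio of the 10 genes. P4hb ranged from 0 to 2482 CPM over MEF wells (median 804) and from 0 to 656 CPM over ES wells (median 37.6). In 26 of 44 MEF wells it exceeded the highest ES well, the most of the 10 genes. That count rests on 1 ES well per gene. The ES median was exceeded in 43 MEF wells for P4hb and in 44 for Serpinh1. Reads were present in 43 of 44 MEF wells and 33 of 45 ES wells. Pooled levels were 847 CPM in MEFs and 122 CPM in ES cells, a ratio of 6.95-fold (6.54 to 7.40), or 7.32-fold with negative control reads subtracted. There were 3.10 P4hb reads per alpha subunit read in MEFs (2.16 to 4.15 over plate rows) and 6.56 in ES cells (2.11 to 12.1). The row ranges overlapped.

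The lysyl hydroxylases were at lower levels per kilobase than Serpinh1, P4hb and Pcolce. Plod2, the form that hydroxylates the telopeptides, ranged from 0 to 1365 CPM over MEF wells (median 142) and from 0 to 490 CPM over ES wells (median 0). Only 2 MEF wells exceeded the highest ES well, and it was read in 39 of 44 MEF wells and 13 of 45 ES wells. Pooled levels were 190 CPM in MEFs and 21.4 CPM in ES cells, a ratio of 8.88-fold (7.68 to 10.3). With negative control reads subtracted the ratio was 12.4-fold.

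Plod3, which also adds the sugars to hydroxylysine, ranged from 0 to 327 CPM over MEF wells (median 58.4) and from 0 to 302 CPM over ES wells (median 0). The extremes were alike, though the highest ES value came from 8 reads in replicate 28, a well of 26466 gene reads. Reads were present in 40 of 44 MEF wells and 8 of 45 ES wells. Pooled levels of Plod3 were 80.6 CPM in MEFs and 9.06 CPM in ES cells, a ratio of 8.90-fold (7.11 to 11.3). On the log2 scale the ratio was 3.15 pooled, 2.76 from the mean of per-well CPM and 2.16 after thinning to 20000 gene reads. The thinned value was 0.96 above the all-gene median, short of 2-fold.

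Plod1, which acts on lysines within the helix, was the lowest of the 10 genes in MEFs, ranging from 0 to 190 CPM over MEF wells (median 3.62) and from 0 to 162 CPM over ES wells (median 0). It was read in 22 of 44 MEF wells and 4 of 45 ES wells. Pooled levels were 34.6 CPM in MEFs and 4.01 CPM in ES cells, a ratio of 8.62-fold (6.16 to 12.4). ES replicate 13 held 60% of its 35 ES reads, and without that well the ratio was 21.2-fold.

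Plod2 made up 62.3% of the family's reads in MEFs and 62.1% in ES cells, Plod3 26.4% in MEFs and 26.2% in ES cells, and Plod1 11.3% in MEFs and 11.6% in ES cells. The ES values come from 301 reads in 18 wells, and the row SD of the Plod2 share was 15.2 percentage points in MEFs and 34.8 in ES cells, far more than the difference between the types. The ES share of Plod2 was 53.4% with negative control reads subtracted and 57.9% without ES replicates 4, 7 and 30. Plod2 was the top form in 28 of 44 MEF wells, Plod3 in 12 and Plod1 in 2. Most MEF wells mixed the forms, with all 3 read in 20 wells and a pair in 19.

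Serpinh1, the collagen chaperone, was the most abundant of the 10 genes in MEFs and the only one with reads in every MEF well. It ranged from 223 to 3009 CPM over MEF wells (median 1121) and from 0 to 1768 CPM over ES wells (median 55.3). It was read in 38 of 45 ES wells, and 10 MEF wells exceeded the highest ES well. That ES well was replicate 8, the shallowest one kept, with 24 Serpinh1 reads among 13576 gene reads. Over plate rows the pooled level ran from 774 to 1639 CPM in MEFs and from 40.97 to 262 CPM in ES cells, with no overlap. Nor did the row levels overlap for any other of the 10 genes but Plod1. All wells pooled gave 1239 CPM in MEFs and 96.3 CPM in ES cells, a ratio of 12.9-fold (12.01 to 13.8). The ratio was 15.2-fold without ES replicates 4, 7 and 30, and 18.3-fold with negative control reads subtracted. It was lower where each well counted equally. On the log2 scale the ratio was 3.685 pooled, 2.495 from the mean of per-well CPM and 2.977 after thinning to 20000 gene reads.

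Serpinh1 and P4hb differed in order between the cell types in the pooled reads. There were 1.46 Serpinh1 reads for each P4hb read in MEFs and 0.790 in ES cells, or 1.52 in MEFs and 0.821 in ES cells per kilobase of the deposited length. Serpinh1 had more reads than P4hb in 7 of 8 plate rows in MEFs and in 2 of 8 in ES cells. The row values ran from 0.491 to 2.96 in MEFs and from 0.377 to 2.92 in ES cells and so overlapped. Well by well the order did not turn: Serpinh1 had more reads than P4hb in 30 of 44 MEF wells and fewer in 14, and in 23 of 45 ES wells and fewer in 14. The pooled ES value was 0.584 with negative control reads subtracted and 0.680 without ES replicates 4, 7 and 30.

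Of the genes that act outside the cell, Pcolce, the enhancer of C-propeptide removal, ranged from 0 to 748 CPM over MEF wells (median 187) and from 0 to 400 CPM over ES wells (median 0). It was read in 40 of 44 MEF wells and 15 of 45 ES wells, and 9 MEF wells exceeded the highest ES well. Pooled levels were 228 CPM in MEFs and 23.9 CPM in ES cells, a ratio of 9.56-fold (8.33 to 11.03).

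Bmp1, the proteinase, ranged from 0 to 431 CPM over MEF wells (median 106) and from 0 to 545 CPM over ES wells (median 0), so no MEF well exceeded the highest ES well. That ES well was replicate 4, which held 50.8% of the 59 ES reads. Bmp1 was read in 41 of 44 MEF wells and 9 of 45 ES wells. Pooled levels were 123 CPM in MEFs and 6.77 CPM in ES cells, a ratio of 18.1-fold (14.03 to 23.9), which was 36.7-fold without ES replicate 4. The ratio was lower where each well counted equally. On the log2 scale it was 4.18 pooled, 3.05 from the mean of per-well CPM and 2.43 after thinning to 20000 gene reads.

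**Figure D4:**
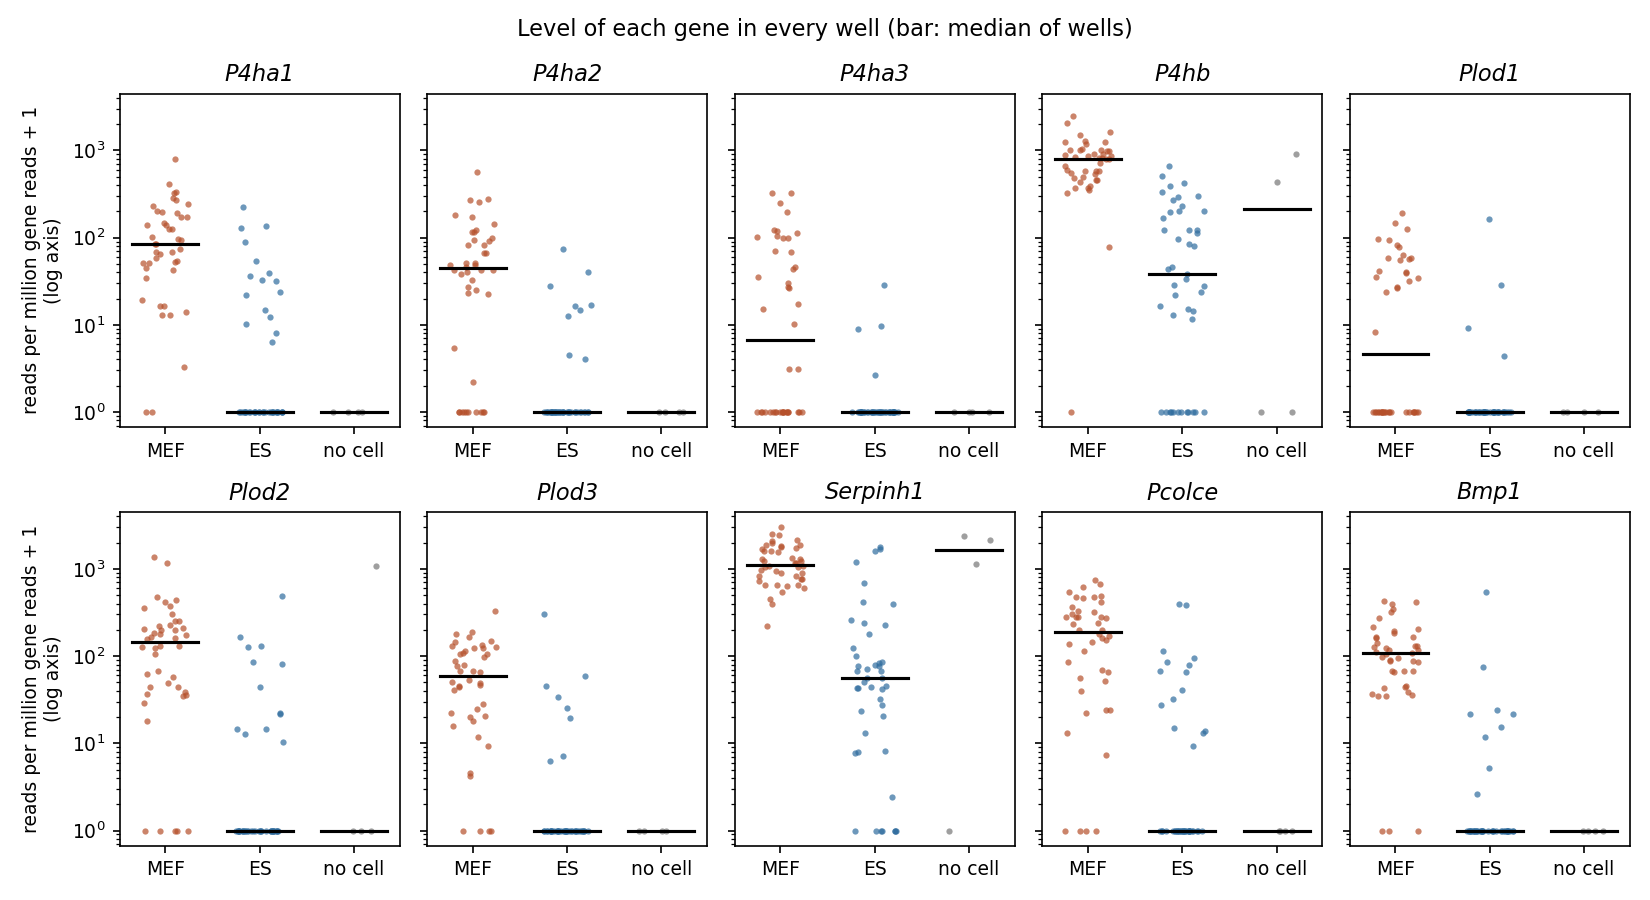
CPM plus 1 on a log axis (y) for each gene in every MEF well (44), ES well (45) and negative control well (4, "no cell"); points are wells and bars are medians. Serpinh1 and P4hb form raised bands in MEFs, the other genes scatter down to no reads, and the ES medians of all but Serpinh1 and P4hb are at 0.

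The order of levels is given per kilobase of the deposited transcript length, though 5′-end reads need not scale with length, and the read shares and read ratios above are not divided by length unless stated. In MEFs the order was Serpinh1 (507 CPM per kilobase), P4hb (334), Pcolce (148), Plod2 (51.4), P4ha1 (33.7), P4ha2 (33.03), Bmp1 (27.5), P4ha3 (25.3), Plod3 (24.6) and Plod1 (10.6). Down to Plod2 each gene was above the next in at least 7 of 8 plate rows, and so was Plod3 above Plod1. From Plod2 to Plod3, each gene lay above the next in 3 to 5 of 8 rows, so those neighbours did not differ beyond their spread. In ES cells P4hb (48.0) stood first, then Serpinh1 (39.4), Pcolce (15.5) and Plod2 (5.79), with all others below 4 CPM per kilobase. On the plain CPM scale the same 5 genes led in MEFs, and P4ha2, at 77.4 CPM, stood below Bmp1 and Plod3.

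Variation among MEFs was described after thinning each well to 60000 gene reads. The coefficient of variation was lowest for Serpinh1 at 0.51 and P4hb at 0.56, and highest for P4ha3 at 1.76. Rare genes vary more by counting alone, so each was set beside the 200 genes nearest in mean level. Plod3 was even for its level, at 0.96 against a median of 1.47 for its neighbours, of which 3.0% varied less. Plod2 was the most uneven for its level, at 1.40 against 1.01, and 77% of its neighbours varied less. The sum of the 10 genes ran from 52 to 349 reads per 60000 (median 168.5), a range of 6.71-fold, and that of the 17 collagen chain genes from 151 to 1767 reads, a range of 11.7-fold.

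Across the 44 MEF wells the 10 genes followed one another only weakly. The median Spearman rho over the 45 pairs was 0.076, between -0.219 for Plod2 with Plod3 and 0.462 for P4ha1 with Plod1. With all reads of each well it was 0.143, and by Pearson correlation of log2 values with 10 CPM added it was 0.122. At the thinned depth, pairs drawn from all 3775 genes read in at least 50% of MEF wells had a median of 0.038, with 5 to 95% of them between -0.226 and 0.298. The 28 pairs of the 10 genes that met the same read requirement had a median of 0.070, between -0.219 and 0.296. The pair P4ha1 with Plod1 was not among these. The sum of the 10 genes had a rho of 0.443 with the sum of the collagen chain genes and 0.064 with the gene reads of the well before thinning. Serpinh1 alone had 0.424 with the collagen sum, and each of the other 9 genes between 0.016 and 0.173. Before thinning, Serpinh1 held 43555 and P4hb 29794 of the 106032 MEF reads of the 10 genes, so both weigh most in their sum. The genes whose pattern was most like the summed 10 genes were Col5a1, a fibrillar collagen chain (rho 0.582), Fkbp1a, a prolyl isomerase (0.567), and Fkbp14, a prolyl isomerase of the endoplasmic reticulum (0.534). For Serpinh1 they were Pdia6 (0.618), a disulfide isomerase, Col5a1 (0.577) and 2310036O22Rik (0.543). For P4hb they were the autophagy gene Gabarapl1 (0.547), the haem transporter gene Slc48a1 (0.517) and Prrc1 (0.511), and for Pcolce the chaperone Calr (0.535), the mitochondrial fatty acid oxidation gene Hadha (0.528) and Manf (0.498), a protein of the endoplasmic reticulum stress response. The wells share 1 library and 1 culture, and these values are descriptions over 44 wells picked as the highest of 3775 genes.

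**Figure D5:**
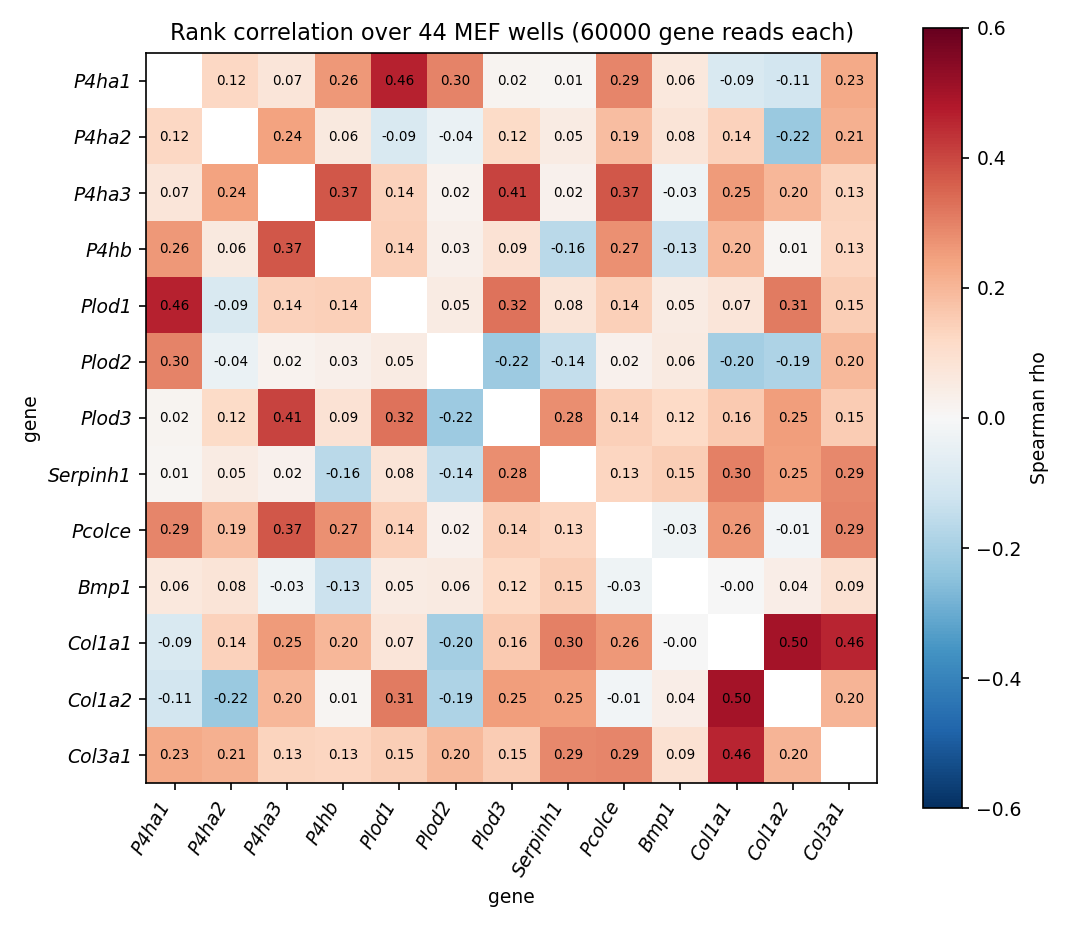
Spearman rho over the 44 MEF wells, each thinned to 60000 gene reads, for every pair of the 10 genes and 3 collagen chain genes (both axes). Most pairs of the 10 genes are near 0 (median 0.076), and the collagen chain genes correlate with Serpinh1 at 0.25 to 0.30.

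The other genes of the pathway were counted from lists of their roles, on the CPM scale unless stated. Scaling by spike-in reads in place of gene reads moved every log2 ratio up by 4.56, which turned the direction of 5 of the 69 measured genes (Col18a1, Pcolce2, Klhl12, Egln3 and Slc23a1) to higher in MEFs. Scaling by median-of-ratios moved each down by 1.48, which turned 16 of them to lower in MEFs, among those named below Adamts3, Ppib, Lepre1 and Egln2. The substrates, 17 measured collagen chain genes, passed 2-fold in MEFs in 15 cases (14 relative to the all-gene median), with a median log2 ratio 2.71 above the all-gene median. Col1a1 stood at 1709 CPM in MEFs and 76.4 CPM in ES cells, Col1a2 at 3627 CPM in MEFs and 199 CPM in ES cells, Col12a1 at 1670 CPM in MEFs and 45.3 CPM in ES cells, and Col8a1 at 808 CPM in MEFs and 44.7 CPM in ES cells. Col18a1 was the exception, at 11.8 CPM in MEFs and 35.4 CPM in ES cells. All 5 lysyl oxidases, which act after the 10 genes, were higher in MEFs by 2-fold or more on both scales, with a median 2.88 above the all-gene median. Lox, which starts crosslinking, had 985 CPM in MEFs and 48.0 CPM in ES cells, and Loxl2 1145 CPM in MEFs and 76.1 CPM in ES cells. Loxl1 had 174 CPM in MEFs and 9.75 CPM in ES cells, and Loxl3 34.8 CPM in MEFs and 0.92 CPM in ES cells. Genes of collagen uptake and turnover were higher in 4 of 5 cases, with 4 higher and 1 lower relative to the all-gene median and a median 2.35 above that of all genes, among them the collagenase activator Mmp14, at 216 CPM in MEFs and 15.1 CPM in ES cells, the gelatinase Mmp2, at 1928 CPM in MEFs and 67.5 CPM in ES cells, and the endocytic collagen receptor Mrc2, at 239 CPM in MEFs and 10.6 CPM in ES cells. Ctsk, a collagen-degrading cathepsin, had 3.67 CPM in MEFs and no ES read.

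Other modifiers of proline were less uniform. Of 7 measured genes of the prolyl 3-hydroxylase complex and the collagen prolyl isomerases, 4 were at least 2-fold higher in MEFs, 1 lower and 2 neither (relative to the all-gene median 3, 1 and 3), with a median only 0.24 above that of all genes. The isomerase Fkbp10 had 224 CPM in MEFs and 18.9 CPM in ES cells, and Fkbp14 89.2 CPM in MEFs and 6.995 CPM in ES cells. Crtap, the scaffold of the complex, had 687 CPM in MEFs and 209 CPM in ES cells, and Leprel2 39.99 CPM in MEFs and 6.19 CPM in ES cells. Ppib, its isomerase, had 187 CPM in MEFs and 113 CPM in ES cells, and Lepre1, its hydroxylase, 54.2 CPM in MEFs and 38.8 CPM in ES cells. Leprel1 was not read in MEFs and had 64 reads in 1 ES well. The galactosyltransferase Glt25d1, the one measured of its kind, had 142 CPM in MEFs and 37.4 CPM in ES cells, neither higher nor lower by 2-fold relative to the all-gene median.

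Of 5 other measured procollagen proteinases and enhancers, 2 were at least 2-fold higher in MEFs, 1 lower and 2 neither (relative to the all-gene median 2, 2 and 1), a median 0.61 below that of all genes. Tll1, a relative of Bmp1, had 65.9 CPM in MEFs and 2.75 CPM in ES cells, and the N-proteinase Adamts2 had 14.3 CPM in MEFs and 0.69 CPM in ES cells. Adamts3 had 2.73 CPM in MEFs and 1.49 CPM in ES cells. Pcolce2, a relative of Pcolce, had 15.1 CPM in MEFs, over 11 wells, and 45.9 CPM in ES cells, over 6 wells. ES replicate 26 held 72.8% of its ES reads, and without that well the ES level was 12.6 CPM, below that in MEFs.

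Of 10 measured genes of procollagen export from the endoplasmic reticulum, 5 were at least 2-fold higher in MEFs, 1 (Klhl12) lower and 4 neither (relative to the all-gene median 4, 2 and 4), a median 0.09 above that of all genes. Klhl12 had 7.51 CPM in MEFs, over 8 wells, and 16.1 CPM in ES cells, all of it from 1 well without which it was not read there. The coat subunit Sec24d had 80.7 CPM in MEFs and 2.98 CPM in ES cells, Sec23b 52.03 CPM in MEFs and 7.68 CPM in ES cells, Sec31a 197 CPM in MEFs and 41.4 CPM in ES cells, and the GTPase Sar1a 405 CPM in MEFs and 52.4 CPM in ES cells. Of 12 other disulfide isomerases and folding factors, 9 were at least 2-fold higher in MEFs, 0 lower and 3 neither (relative to the all-gene median 5, 0 and 7), with a median 0.62 above that of all genes. Txndc5 had 394 CPM in MEFs and 32.3 CPM in ES cells, Calr 670 CPM in MEFs and 80.8 CPM in ES cells, Pdia3 527 CPM in MEFs and 63.8 CPM in ES cells, and Pdia4 148 CPM in MEFs and 26.03 CPM in ES cells. Of 7 other prolyl hydroxylases and ascorbate transporters, 5 were higher in MEFs by 2-fold or more and 2 lower (relative to the all-gene median 3 higher, 2 lower and 2 neither), a median 0.09 below that of all genes. Among the oxygen-sensing hydroxylases, Egln1 had 120 CPM in MEFs and 5.62 CPM in ES cells and Egln2 36.9 CPM in MEFs and 14.1 CPM in ES cells, and Egln3 had 2.05 CPM in MEFs, over 4 wells, and 23.3 CPM in ES cells, over 3 wells. Without ES replicate 38, which held 83.3% of the ES reads, Egln3 had 4.03 CPM in ES cells. Of the ascorbate transporters, Slc23a2 had 10.6 CPM in MEFs and 1.26 CPM in ES cells and Slc23a1 2.503 CPM in MEFs and 10.2 CPM in ES cells.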

How the data were processed

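Single cells were profiled by STRT in 44 MEF wells, 48 ES wells and 4 negative control wells of 1 plate. The deposited table holds raw read counts per transcript and well, which the authors did not normalise, per the file headers. These are maximum exon hits, so they include reads with alternative mappings, and uniquely mapped reads over the plate and transcript lengths stand in columns of their own. Bowtie is named in the submitters' processing notes. Its version, the genome build and the annotation are not given in the sources used here. No molecular identifiers are mentioned.

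Reads were summed over the wells of a type with at least 10000 gene reads and divided by its gene reads to give CPM. Pooled values have exact Poisson intervals, shares exact Clopper-Pearson intervals and ratios an interval from the exact binomial split of the reads, all at 95%. Genes entered with 20 reads or more in the types together. Cell types were not tested, since each is 1 culture, and spread was taken over the 8 plate rows. Thinning drew reads at random without replacement with a fixed seed. The calculation of ratios was tested on simulated data. The 10 genes and all gene lists were chosen with earlier results of these data known. From each list the 4 measured genes with the largest absolute log2 ratio after adding 10 CPM are named, with exceptions within a list, and the 3 genes most alike in rho to the sum and to its 3 most read members. Other genes were named after their values were seen. No column of per-well values was left unused. Python 3.11.15, NumPy 2.4.6, pandas 2.3.3, SciPy 1.17.1 and matplotlib 3.10.9 were used. Alternatives changed scaling, filters, well minimum, depth, background, wells and plate rows.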

Additional observations from a re-analysis of the deposited data

Results flagged for a closer look

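Plod2 was read in only 1 of the 4 negative control wells, with 0, 5, 0 and 0 reads, so that well stood apart from the other 3. For measured values, chance sets apart about 1 in 20 groups by this criterion, and for counts near 0 its rate was not determined. Those 5 reads raise the Plod2 ratio to 12.4-fold after subtraction of the negative control level, against 8.88-fold without it.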

How the results depend on the processing

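All 10 genes stayed at least 2-fold higher in MEFs under 15 alternatives, under which 32.5% (10 CPM added) to 94.7% (spike-in scaling) of all genes also did. Relative to the all-gene median the count was 9 or 10, with 9 after thinning, without the highest well of each type, and in plate rows A to D or E to H alone. Other scalings shift every gene alike, so they could not change this relative count or the median relative ratio. The median relative log2 ratio was 2.36 in plate rows E to H, against 1.83 over all rows, and the cause was not tested. The all-gene median moved from 1.48 to 0.85 without ribosomal protein genes and to 6.04 under spike-in scaling, under which MEF wells had 152 gene reads and ES wells 6.62 per spike-in read. Of 150 values of single genes, 80 stayed within their counting interval and 70 moved. The 80 include values under other minimums of reads per gene, which cannot change a single gene's ratio. None of the 150 turned negative, and Plod1 in plate rows E to H was the one value below the all-gene median, at -0.09. The mean of per-well CPM lowered the ratio past its interval for P4ha1, Plod2, Plod3, Serpinh1, Pcolce and Bmp1. Thinning did so for P4ha3, Plod3, Serpinh1, Pcolce and Bmp1. The number of genes read in at least 50% of MEF wells was 10 with all reads and 7 after thinning. Leaving out the highest ES well alone, chosen after seeing the data, moved the ratio by over 1.5 times for P4ha3, Plod1 and Bmp1. It reversed the CPM difference, MEF minus ES, of Pcolce2 to 2.48 and of Klhl12 to 7.51. No paired analysis was possible because the cell types share no replicate numbers, and differences within plate rows are given as spread. Depth limits the ES values, where 6 of the 10 genes had at most 115 reads.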
